A study of Mus musculus with 15 samples.

Results

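The genes described here are the MHC class II genes and their transactivator: H2-Aa, H2-Ab1, H2-Eb1, H2-DMa, H2-DMb1, Cd74 and Ciita. They were taken by gene symbol, each symbol matching 1 row, and are 7 of the 27174 genes in the deposited table. All 7 passed the filter on low values, which asked for a normalised score of 10 or more in 3 or more libraries and kept 19668 genes.

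MHC class II molecules are pairs of an alpha and a beta chain that carry peptides from the endosome to the cell surface, where CD4 T cells read them. The invariant chain, encoded by Cd74, guards the empty groove and steers the pair to the endosome, and the H2-DM heterodimer then swaps the last invariant chain fragment for peptide. The genes share a promoter module, the X and Y boxes, at which the coactivator encoded by Ciita acts, and interferon gamma is a classical inducer of Ciita. Dendritic cells, macrophages and B cells are the main producers, and brain endothelium can make class II when it is inflamed.

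RNA was sequenced from brain microvessels of adult wild-type mice (strain given as BL6/57), in 15 libraries that form 5 groups of 3, each library a pool of 3 mice. Sham-operated healthy mice gave the sham group, with no sampling day in the labels. The other 4 groups came 21 days after transplantation of glioblastoma cells whose line was not given in the sources used here: the contralateral region without tumour and the tumour-bearing region of mice on control IgG (untreated), and the tumour-bearing region after Aflibercept-AMG386 (dual) or after both with anti-PD1 (triple). Aflibercept is a soluble decoy receptor for VEGF, AMG386 a peptibody against the angiopoietins, and the PD-1 antibody releases a brake on T cells. The question set by the design is what the tumour does to its vessels and what treatment then changes.

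The promoters of H2-Aa and H2-Eb1 are printed because they carry the module through which Ciita acts. They run from 150 bases to 1 base before the annotated start (RefSeq, GRCm38.p6, 5′ to 3′ on the gene's strand). Capitals mark first the left part of the X box, searched as TNGNAACT, and then the core of the Y box, TGATTGG.
H2-Aa, chr17:34287824-34287973, minus strand: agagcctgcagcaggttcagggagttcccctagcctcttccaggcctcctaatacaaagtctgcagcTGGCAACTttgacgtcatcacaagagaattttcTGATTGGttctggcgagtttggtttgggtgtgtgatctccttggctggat
H2-Eb1, chr17:34305717-34305866, plus strand: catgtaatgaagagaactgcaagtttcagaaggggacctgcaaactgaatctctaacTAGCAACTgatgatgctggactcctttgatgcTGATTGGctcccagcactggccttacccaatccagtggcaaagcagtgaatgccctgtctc

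The X box match began 83 bases before the start in H2-Aa, 93 in H2-Eb1 and 96 in H2-DMb1. The Y box core began 25, 24 and 25 bases after the end of that match, so the spacing of both boxes was nearly the same in these promoters. In the windows of H2-Oa, H2-Ob, H2-DMb2 and H2-Eb2, the same search found the Y box core but no X box match. H2-Eb1 and H2-DMb1 also shared the run AACTGATGATGCT, the longest run common to their windows. It is held on either strand by 3 of 32851 mouse promoters of 300 bases (0.00913%). Those 3 include H2-Eb1 and H2-DMb1 themselves, from which the run was taken, so this share is not independent of them. TGATTGG was found on either strand in 7.82% of those promoters, TNGNAACT in 12.3% and both together in 0.965%. The letters were chosen after the promoters of H2-Aa, H2-Eb1 and H2-DMb1 had been read. The X box search and the shared run overlap in AACT, and a match is a description of sequence. For H2-DMb1, positions count from the RefSeq start: both boxes lie inside the gene as the deposited table draws it, which starts at 34153072, so its window is not printed. RefSeq entries were matched for 4 of the 7 genes. Those of H2-DMa start far upstream of the gene start in the deposited table and are not shown, and H2-Ab1, Cd74 and Ciita had no entry.

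By the deposited coordinates (GRCm38), 5 of the 7 genes lie together on chromosome 17: H2-DMa (ENSMUSG00000037649, 34135182 to 34139101), H2-DMb1 (ENSMUSG00000079547, 34153072 to 34160230), H2-Ab1 (ENSMUSG00000073421, 34263209 to 34269418), H2-Aa (ENSMUSG00000036594, 34282744 to 34287827) and H2-Eb1 (ENSMUSG00000060586, 34305877 to 34316199). Cd74 (ENSMUSG00000024610) lies on chromosome 18, 60803848 to 60812646. Ciita (ENSMUSG00000022504) lies on chromosome 16, 10488178 to 10527564. Reads of H2-DMb1 and its near copy H2-DMb2, and of the class II beta chains, could be divided between rows in an uncertain way, and the strand setting of the read counting is not known from the labels.

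Depth was estimated at 6365348 to 18035515 reads per library from the steps between the deposited scores. In contralateral replicate 3, untreated replicate 3 and triple replicate 1 no clear steps were found. For these libraries 1 read was assumed to be worth 1 score unit. Mitochondrial ribosomal RNA took 33.2% of the score of untreated replicate 2, 21.5% and 22.4% of the other untreated libraries, and 9.55% to 17.4% elsewhere. Untreated replicate 2, for that RNA, and dual replicate 2, on a principal component of an earlier analysis, stood apart from their groups, so calls that change without them are given both ways. The vessel label was checked against endothelial markers: the summed score of 12 of them (Pecam1, Cdh5, Cldn5 and others) was 70035 to 138416 in every library, and none was at 0. Flt1 was the largest part of this sum, which was 106129 to 138416 in contralateral and 70035 to 99460 in untreated libraries. Other cell types differed too between contralateral and untreated libraries. Marker sums were 79409 to 83183 and 26310 to 40778 for pericytes and smooth muscle. They were 32474 to 42332 and 14898 to 15817 for astrocytes, and 7592 to 9420 and 1183 to 2798 for neurons. Leukocytes were present as well: the summed score of Ptprc, Laptm5, Coro1a, Cd53 and Cd52 was 807 to 947 in sham, 1024 to 1142 in contralateral, 3465 to 5207 in untreated, 2576 to 4154 in dual and 2365 to 3748 in triple libraries. In bulk RNA, more cells of a type and more RNA per cell cannot be told apart.

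All 7 genes rose in vessels of the untreated tumour against the contralateral region, by 9.82-fold (H2-DMa) to 14.2-fold (H2-Ab1). Of all genes tested, 21.1% rose. The median log2 fold change of the 7 was 3.56, beside 0.008 over all genes tested. The chains that form the peptide-binding pairs, their chaperone, the peptide editor and the transactivator were thus all higher, and for each gene the lowest tumour library was above the highest contralateral library. All genes tested that lay apart in this way made up 25.3%.

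H2-Aa encodes the alpha chain of the I-A molecule. Its normalised score was 66, 84 and 23 in sham, 192, 41 and 80 in contralateral, 1316, 644 and 1419 in untreated, 1468, 502 and 707 in dual and 1231, 1372 and 849 in triple libraries, in the order of replicates 1 to 3. The 9 tumour libraries were all above the 6 others, while the 3 tumour groups overlapped one another. The rise from contralateral to untreated was 3.61 ± 0.50 on the log2 scale (SE, n = 3 libraries a group, limma adjusted p = 1.54e-05).

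H2-Ab1 encodes the beta chain that pairs with it. Its score was 74, 73 and 43 in sham, 181, 104 and 91 in contralateral, 2060, 1141 and 2147 in untreated, 2095, 831 and 2011 in dual and 2208, 2294 and 1154 in triple libraries. The contralateral libraries were all above sham and far below every tumour library. H2-Ab1 rose by 3.83 ± 0.35 on the log2 scale in untreated tumour (limma adjusted p = 2.03e-07).

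H2-Eb1 encodes the beta chain of the I-E molecule, whose alpha chain gene is defective in this strain background. Its score was 58, 61 and 41 in sham, 231, 82 and 93 in contralateral, 1668, 906 and 1952 in untreated, 1821, 638 and 1483 in dual and 2035, 1860 and 1050 in triple libraries. It followed the pattern of the I-A chains, with a rise of 3.56 ± 0.39 on the log2 scale in untreated tumour (limma adjusted p = 1.35e-06).

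Cd74, the invariant chain gene, had the highest mean level per length of the 7 in untreated tumour. Its score was 90, 78 and 54 in sham, 287, 103 and 130 in contralateral, 2805, 1313 and 2934 in untreated, 2725, 875 and 1791 in dual and 2408, 2919 and 1407 in triple libraries. As with H2-Ab1 and H2-Eb1, contralateral libraries lay between sham and tumour without overlap. The rise in untreated tumour was 3.81 ± 0.41 on the log2 scale (limma adjusted p = 8.81e-07).

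H2-DMa encodes the alpha chain of the peptide editor. Its score was 17, 15 and 10 in sham, 15, 18 and 23 in contralateral, 292, 102 and 228 in untreated, 166, 85 and 164 in dual and 173, 197 and 86 in triple libraries. Sham and contralateral overlapped, and every tumour library was several times higher. The rise in untreated tumour was 3.30 ± 0.39 on the log2 scale (limma adjusted p = 2.76e-06).

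H2-DMb1 encodes a beta chain of the editor. Its score was 7, 7 and 1 in sham, 18, 6 and 10 in contralateral, 168, 78 and 152 in untreated, 112, 61 and 66 in dual and 102, 123 and 67 in triple libraries. The vessels without tumour were near the filter of 10, where the log2(score + 1) scale understates a fold change. The rise in untreated tumour was 3.48 ± 0.51 on the log2 scale (limma adjusted p = 2.51e-05).

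Ciita, the transactivator gene, had the lowest level per length of the 7 in untreated tumour. Its score was 32, 17 and 37 in sham, 33, 32 and 27 in contralateral, 403, 202 and 429 in untreated, 238, 168 and 234 in dual and 199, 356 and 108 in triple libraries. Unlike Cd74, it had contralateral libraries inside the range of sham. Ciita rose by 3.38 ± 0.37 on the log2 scale in untreated tumour (limma adjusted p = 1.17e-06).

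**Figure D1:**
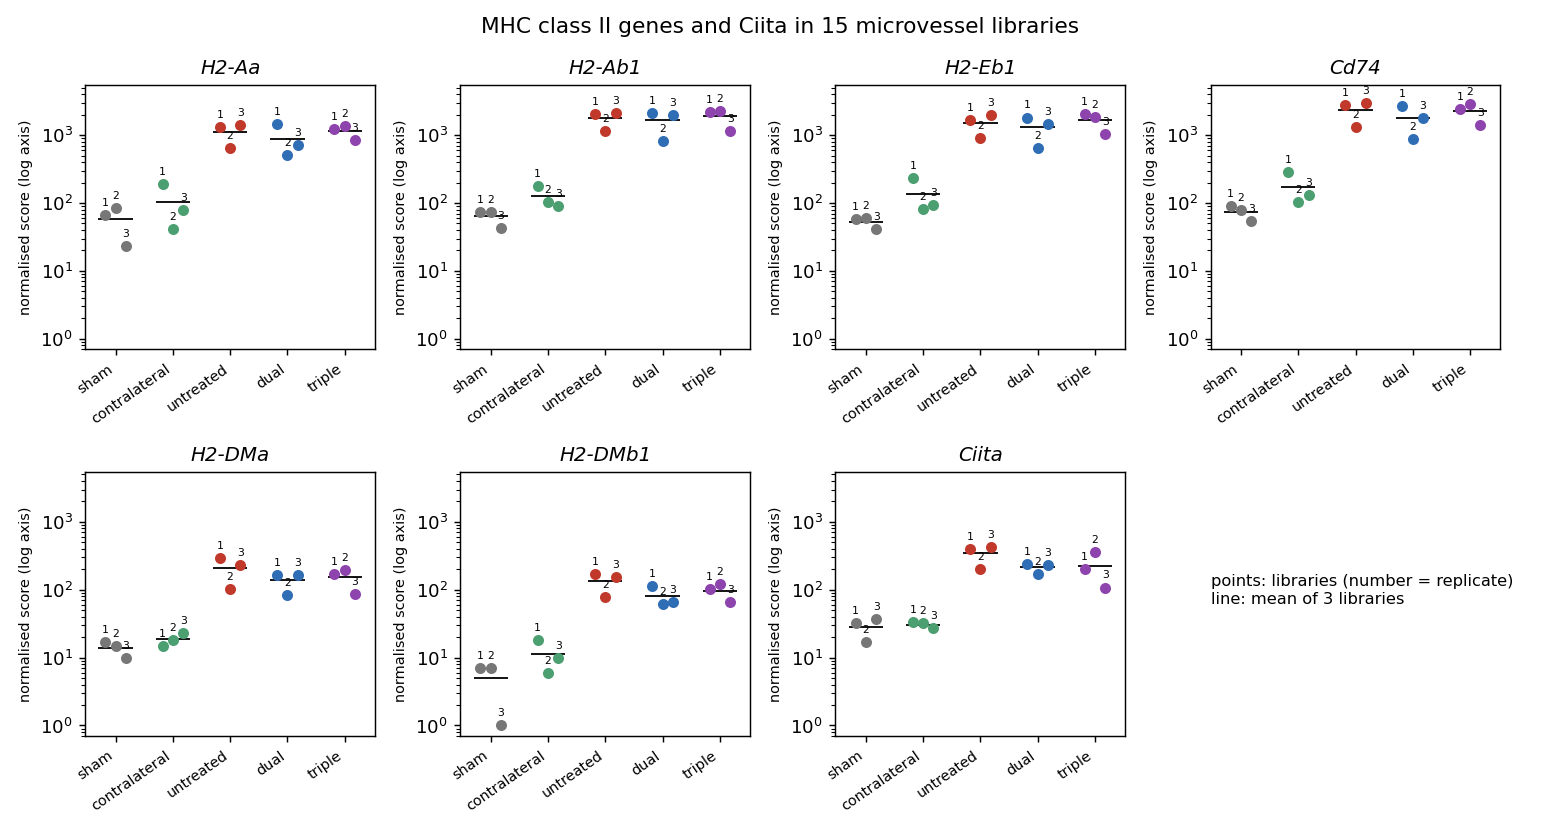
Normalised score (log axis) of each of the 7 genes in the 15 libraries; points are libraries numbered by replicate and lines are means of 3. All 9 tumour libraries lie above all 6 libraries without tumour for each gene, and replicate 2 of untreated, replicate 2 of dual and replicate 3 of triple are the lowest of their groups in every panel.

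Levels of different genes were compared per kilobase of exon. In untreated tumour the mean score per kilobase of the exon union was 1400 for Cd74, 776.1 for H2-Eb1, 694.2 for H2-Ab1, 296.6 for H2-Aa, 78.92 for H2-DMb1, 60.13 for H2-DMa and 36.15 for Ciita. With the longest coding transcript as length, Cd74 was again first and Ciita last, but H2-Ab1 (1471) and H2-Aa (998.5) came before H2-Eb1 (903.9), and H2-DMa (103.4) before H2-DMb1 (94.49). The order within the classical chains, and within the DM pair, therefore depends on the length used. So does the first place in dual tumours: by transcript length H2-Ab1 (1358) came before Cd74 (1274) there.

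Against sham, all 7 genes rose as well in untreated tumour, with log2 fold changes of 3.54 (Ciita) to 4.91 (Cd74) and limma adjusted p of 9.27e-09 to 1.2e-06, where 23.3% of all genes tested rose. The group means of Cd74 were 74.0 ± 18.3 (SD, n = 3) in sham and 2350.7 ± 901.0 in untreated tumour. The untreated libraries are shared with the comparison against the contralateral region.

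In the contralateral hemisphere of tumour-bearing mice, none of the 7 genes passed the test against sham, by limma-trend or by voom, but 4 had an unadjusted p below 0.05, as did 2341 of the 19668 genes tested (11.9%). Of all genes tested, 0.432% rose or fell. All 7 log2 differences were above 0, from 0.16 (Ciita) to 1.19 (H2-Eb1), with a median of 0.95 beside -0.011 over all genes. The groups did not overlap for H2-Ab1, H2-Eb1 and Cd74, where 8.50% of all genes tested were higher without overlap. For H2-Eb1 the difference was 1.19 ± 0.39 (SE), with an interval of 0.36 to 2.01 and a limma adjusted p of 0.205. With libraries weighted by quality it was 1.21 and passed (limma adjusted p = 0.0463). Ciita differed by 0.16, with an interval of -0.62 to 0.93. Contralateral replicate 1 was the highest of its group for each of the 7 except H2-DMa. The summed leukocyte score was higher in the contralateral libraries too, and its part in these differences was not tested.

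With dual treatment none of the 7 genes passed the test against untreated tumour, by limma-trend or by voom, and none had an unadjusted p below 0.05. Of all genes tested, 22.3% rose or fell. The log2 differences of the 7 were all below 0, from -0.71 (H2-DMb1) to -0.18 (H2-Ab1). The means of Ciita were 344.7 ± 124.2 (SD, n = 3) in untreated and 213.3 ± 39.3 in dual libraries, a log2 difference of -0.63 ± 0.37 (SE, limma adjusted p = 0.239). The 95% intervals of the 7 genes all included 0, with outermost ends of -1.77 (H2-DMb1) and 0.65 (H2-Aa). That of H2-Ab1 was -0.92 to 0.57. For each gene, changes inside its own interval could not be told from no change with 3 libraries a group.

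With triple treatment none of the 7 passed against untreated tumour by limma-trend or voom either, and none had an unadjusted p below 0.05, where 32.2% of all genes tested rose or fell. The estimates for the I-A and I-E chains and Cd74 were within 0.14 of 0 in log2 difference, but their intervals were wide, reaching -0.97 to 1.14 for H2-Aa. H2-Ab1 was at 1782.7 ± 557.4 (SD, n = 3) in untreated and 1885.3 ± 634.8 in triple libraries, with an interval of -0.67 to 0.81 for the log2 difference. H2-DMa (-0.40) and H2-DMb1 (-0.41) were lower on the log2 scale, without passing.

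Ciita stood lowest of the 7 in this comparison. Its mean was 344.7 ± 124.2 (SD, n = 3) in untreated and 221.0 ± 125.5 in triple libraries, a log2 difference of -0.73 ± 0.37 (SE, interval -1.50 to 0.05, limma adjusted p = 0.145). Whether it passed depended on single libraries. Without untreated replicate 2 the difference was -1.07 (limma adjusted p = 0.0357), without triple replicate 2 it was -1.15 (limma adjusted p = 0.0251), and with quality weights -0.92 (limma adjusted p = 0.037). Without triple replicate 3 it was -0.29 (limma adjusted p = 0.596), and voom gave -0.43 (adjusted p = 0.394).

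Between the treatments, 0 of the 7 genes passed by limma-trend or voom and none had an unadjusted p below 0.05, where 0.869% of all genes tested rose or fell with triple against dual. The log2 differences were -0.10 (Ciita) to 0.49 (H2-Aa).

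Set against the contralateral region, all 7 genes were still higher in both treated tumours. With dual treatment they rose by 2.75 to 3.65 on the log2 scale (limma adjusted p 2.74e-06 to 0.00115), where 6.91% of all genes tested rose. With triple treatment they rose by 2.65 to 3.90 (limma adjusted p 5.57e-06 to 0.000718), where 4.15% rose. H2-Ab1 was 12.6-fold higher in dual and 14.9-fold higher in triple tumours than in the contralateral region, against 14.2-fold in untreated tumour. Ciita was 6.71-fold, 6.28-fold and 10.4-fold higher, in the same order. These 3 comparisons share the contralateral libraries, which all came from mice on control IgG. Region and treatment therefore differ together where a treated tumour is compared. With voom, H2-DMa missed the threshold in triple against contralateral (2.93, adjusted p = 0.0566).

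**Figure D2:**
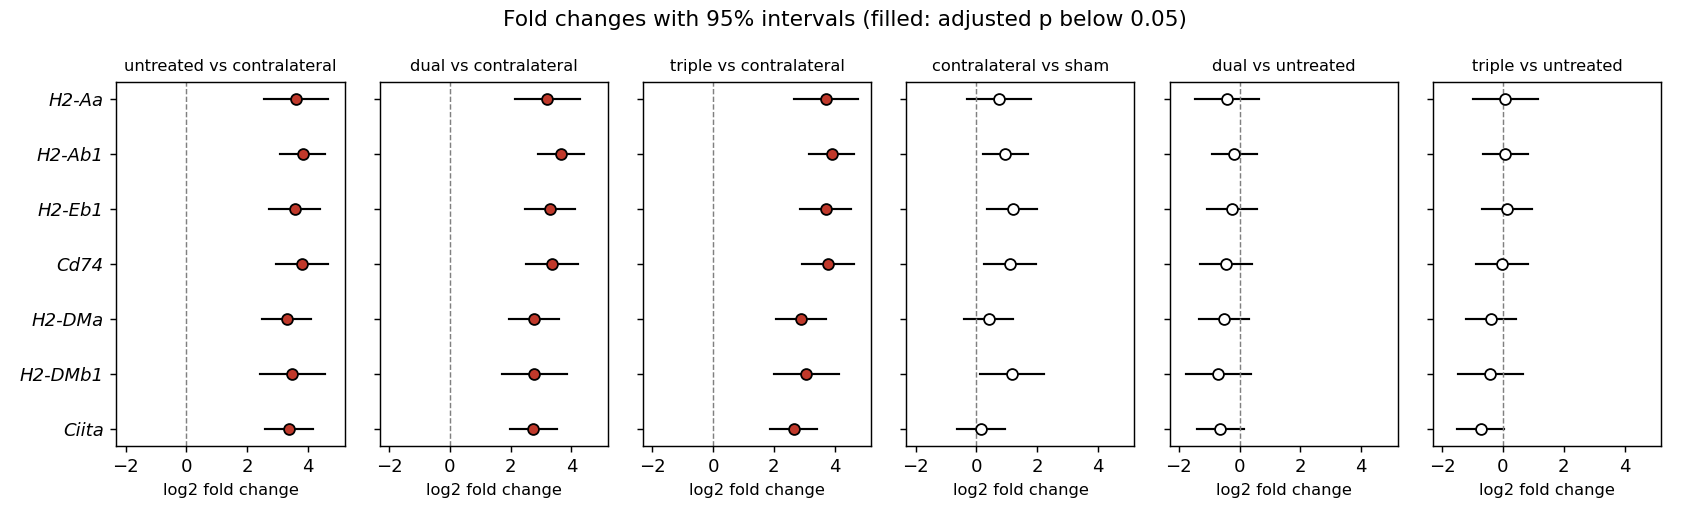
Log2 fold change (x axis) of each gene with its 95% interval in 6 comparisons; filled points passed a limma adjusted p of 0.05. The intervals against the contralateral region lie between 1.71 and 4.75 for the 3 tumour groups, and those of dual or triple against untreated all include 0.

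Levels were next set against Ptprc, the gene of the leukocyte antigen CD45, in the same library, since leukocyte RNA rose with the tumour. Ptprc was at 200, 188 and 185 in sham, 275, 253 and 241 in contralateral, 1451, 1705 and 2442 in untreated, 2021, 1077 and 1722 in dual and 1631, 1876 and 954 in triple libraries. The log2 ratio to Ptprc was higher in untreated than in contralateral vessels for all 7 genes with a pseudocount of 1, by 0.47 to 1.0, but with a pseudocount of 10 that of H2-DMb1 was -0.07 and that of H2-DMa 0.03. Only for H2-Ab1 did the groups not overlap, where 1.52% of all genes tested lay apart and higher. For H2-Ab1 the ratio was -0.09 ± 0.55 (SD, n = 3) in untreated and -1.09 ± 0.43 in contralateral vessels (exact permutation test, two-sided, p = 0.1, the smallest that 3 against 3 libraries can give). Ptprc itself rose by 2.83 ± 0.23 on the log2 scale, against 3.30 to 3.83 for the 7 genes.

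Triple and dual tumours, whose scores overlapped for each of the 7 genes, lay apart in this ratio for 5 of them. The log2 ratio of Cd74 to Ptprc was 0.59 ± 0.04 (SD, n = 3) in triple and 0.06 ± 0.37 in dual tumours. It ranged from 0.56 to 0.64 in triple, from -0.30 to 0.43 in dual and from -0.38 to 0.95 in untreated tumours. H2-Aa, H2-Ab1, H2-Eb1, H2-DMb1 and Cd74 were higher in triple than dual without overlap (differences of 0.37 to 0.61, each with exact permutation p = 0.1), as were 4.94% of all genes tested. H2-DMa and Ciita overlapped. Against untreated tumour, no gene of the 7 lay apart in triple libraries, with differences of -0.38 to 0.49. The ratio rests on Ptprc alone as denominator, and after Benjamini-Hochberg adjustment over the 104 ratios tested the smallest p by exact permutation was 0.433.

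**Figure D3:**
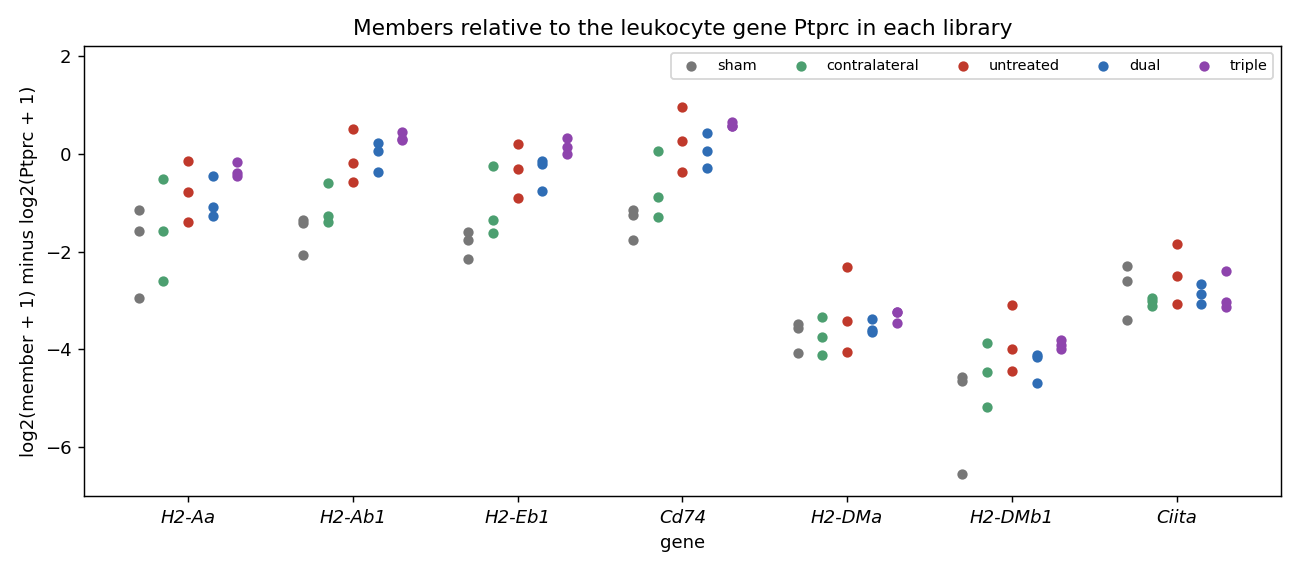
Log2 ratio of each gene to Ptprc within each library (y axis, pseudocount 1), coloured by group. The 3 triple libraries lie close together for Cd74, between 0.56 and 0.64, and above the 3 dual libraries.

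The balance among the 7 genes was also compared, as log2 ratios to Cd74. In triple against untreated tumour, H2-DMa, H2-DMb1 and Ciita were lower relative to Cd74 without overlap of the groups, by -0.36, -0.37 and -0.68 (exact permutation test, two-sided, p = 0.1 each, the smallest possible). The classical chains H2-Aa, H2-Ab1 and H2-Eb1 were higher by 0.11 to 0.19 with overlap. For Ciita the ratio was -2.75 ± 0.05 (SD, n = 3) in untreated and -3.44 ± 0.36 in triple tumours. Of all genes tested, 10.9% were lower relative to Cd74 without overlap. Ratios to Cd74 made up 48 of the 104 tested over the 8 comparisons, of which 24 reached the smallest possible value.

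Ciita was also set against Nlrc5, a relative of Ciita that drives MHC class I genes, a comparison chosen after the values were seen. Nlrc5 was at 309, 190 and 240 in contralateral, 5955, 3900 and 5434 in untreated, 2176, 1937 and 1995 in dual and 1129, 1805 and 651 in triple libraries. It rose in untreated tumour by 4.37 ± 0.28 on the log2 scale and fell with dual (-1.30 ± 0.28, limma adjusted p = 0.00313) and triple treatment (-2.19 ± 0.28, limma adjusted p = 1.76e-05). The log2 ratio of Ciita to Nlrc5 was -3.94 ± 0.31 (SD, n = 3) in untreated, -3.26 ± 0.23 in dual and -2.47 ± 0.12 in triple tumours, and no pair of these groups overlapped (exact permutation test, two-sided, p = 0.1 for each). Among the 3 tumour groups, the ratio was lowest in the untreated and highest in the triple libraries. Without tumour it was -2.94 ± 0.36 in contralateral and -3.07 ± 0.51 in sham libraries, and the ranges of both overlapped that of triple tumours. Scores of Ciita itself overlapped between each pair of the tumour groups, while Nlrc5 fell with treatment. A gene that stayed level would thus show the same order of ratios to Nlrc5. The share of all genes lying apart in this ratio was not computed, so the separation is not read as a result about Ciita.

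Around the members, most tested genes of the class II region of chromosome 17 rose in untreated tumour against contralateral vessels, by differing amounts. Gm15821, whose coordinates lie inside those of Tap2, rose by 2.23 ± 0.54 (limma adjusted p = 0.00284). BC051142, beyond H2-Eb2, was not called (-0.60 ± 0.55, limma adjusted p = 0.399). Brd2, a bromodomain gene between H2-Oa and H2-DMa, was not called (0.05 ± 0.12, limma adjusted p = 0.784). The class I processing genes between the DM and I-A genes rose less than their neighbours, with log2 fold changes of 1.76 (Psmb9), 2.43 (Tap1), 1.55 (Psmb8) and 0.77 (Tap2). The difference between these genes and the members was not tested. Of the other class II chains, 2 of 4 tested rose, where 21.1% of all genes tested rose. H2-DMb2 rose by 3.43 ± 0.59 (limma adjusted p = 0.000133). H2-Eb2, a further beta chain gene, also rose: it was at 1 or 0 in the contralateral libraries and at 77, 32 and 60 in untreated, 18, 2 and 26 in dual and 34, 10 and 22 in triple libraries. H2-Eb2 fell with dual treatment (-2.22 ± 0.75, limma adjusted p = 0.0413) and did not pass with triple (-1.38 ± 0.75, limma adjusted p = 0.174). H2-Oa and H2-Ob, chains of the H2-O molecule that restrains H2-DM, were not called. Their estimates were above 0, at 1.95 ± 1.04 (limma adjusted p = 0.144) and 2.01 ± 0.85 (limma adjusted p = 0.0641). Contralateral scores were 0 to 4 for H2-Oa and 2 to 9 for H2-Ob, near the floor, so a rise could be missed.

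**Figure D4:**
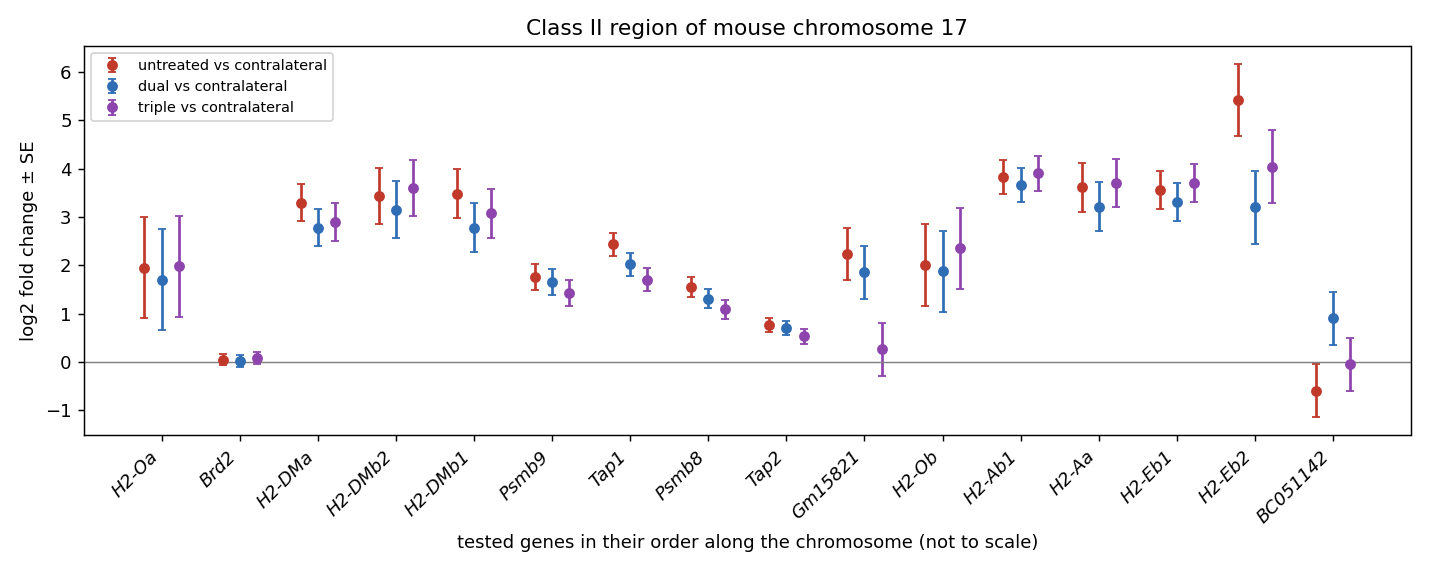
Log2 fold change ± SE (y axis) against the contralateral region for the tested genes of the class II region, in chromosome order and not to scale, for 3 tumour groups. H2-DMa, H2-DMb1, H2-Ab1, H2-Aa and H2-Eb1 lie between 2.78 and 3.90 in all 3 groups, while Brd2 lies near 0.

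The promoter factors that assemble with Ciita mostly did not pass the test: of 7 tested, 0 rose and 1 fell in untreated tumour against contralateral vessels. In that comparison 8354 of all 19668 genes tested rose or fell, and 21.1% rose. The gene that fell was Creb1 (-0.48 ± 0.10, limma adjusted p = 0.000709), an activator that binds the X2 element, and it rose with dual (0.41) and triple treatment (0.36). Rfx5, a subunit of the X box factor RFX, was at 0.38 ± 0.21 (limma adjusted p = 0.157).

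Of 8 genes of endosomal processing, 3 rose and 1 fell in untreated tumour, where 8354 of all 19668 genes tested rose or fell and 21.1% rose. Ctss, the protease that trims the invariant chain, rose by 2.99 ± 0.24 on the log2 scale (limma adjusted p = 4.54e-08), and Ifi30, a thiol reductase of the endosome, by 2.32 ± 0.29. Lgmn, an asparaginyl endopeptidase, rose by 0.93 ± 0.16 and Ctsf, a cathepsin, fell by 1.31 (SE 0.18). With treatment, Lgmn fell with dual (-0.97 ± 0.16, limma adjusted p = 0.00034) and triple (-0.74 ± 0.16, limma adjusted p = 0.00136), and Ctss did not pass with dual (-0.46, limma adjusted p = 0.184) or triple (-0.58, limma adjusted p = 0.0716). The difference between them was not tested. Among genes of surface turnover, Cd83, which protects class II from the ligase encoded by March1, rose by 0.64 ± 0.20. March8, another ligase of that family, fell by 0.48 (SE 0.12) in untreated tumour and rose with dual (0.43) and triple treatment (0.44).

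Of 12 genes of the interferon gamma axis and of Ciita control, 8 rose and none fell in untreated tumour. Among all genes tested, 21.1% rose. Irf1, a transcription factor induced by interferon gamma, rose by 1.56 ± 0.20 on the log2 scale. Irf8, a factor of myeloid cells, rose by 3.07 ± 0.34, and Socs1, a brake on the signal, by 3.44 ± 0.47. Ifng itself was low: 4, 0 and 0 in contralateral, 9, 21 and 39 in untreated, 25, 8 and 21 in dual and 22, 33 and 1 in triple libraries. With dual treatment 1 of the 12 fell and none rose, where 22.3% of all genes tested rose or fell. With triple 2 fell and none rose, where 32.2% of all genes tested rose or fell. Ifngr2, a subunit of the interferon gamma receptor, fell with dual (-0.54 ± 0.15, limma adjusted p = 0.0138) and triple treatment (-0.43 ± 0.15, limma adjusted p = 0.0324). Socs1 fell with triple treatment (-1.28 ± 0.47, limma adjusted p = 0.0427) and did not pass with dual (-1.13 ± 0.47, limma adjusted p = 0.091).

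Of 7 tested costimulation genes 6 rose, among them Cd80 (1.33 ± 0.37) and Cd86 (1.15 ± 0.29) on the log2 scale, the ligands of CD28. All 6 genes of the CD4 T cell side rose, with Cd4 at 1.68 ± 0.39 and Cd3e at 4.05 ± 0.50. All 9 MHC class I genes rose, with a median of 1.55, including H2-K1 (1.78 ± 0.19) and B2m (1.07 ± 0.16). The share of all genes tested that rose in this comparison, untreated against contralateral, was 21.1%. None of the costimulation and CD4 T cell genes passed the test with dual or triple treatment. With triple treatment 2 of the 9 class I genes fell, Nlrc5 and Tap1 (-0.73 ± 0.24, limma adjusted p = 0.0239), where 32.2% of all genes tested rose or fell.

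Marker lists of cell types, some of which can carry class II, moved in both directions in untreated tumour. Against contralateral vessels, 8354 of all 19668 genes tested rose or fell, and 21.1% rose. Of 10 dendritic cell markers 6 rose and 1 fell, and their summed score was 935 to 1034 in contralateral and 1577 to 2044 in untreated libraries. Of 10 monocyte and macrophage markers 8 rose (5260 to 6977 and 6320 to 7060). That sum mostly follows Apoe, which was not called and had means of 4888.7 in contralateral and 3868.7 in untreated libraries. Of 6 tested B cell markers 3 rose (66 to 69 and 109 to 158). Of 6 perivascular macrophage markers 4 fell and none rose (3826 to 4620 and 2150 to 2278). Of 8 microglia markers 3 rose and 2 fell. All 8 T cell markers rose (56 to 140 and 569 to 712). Of the 12 endothelial markers 1 rose and 3 fell. None of the dendritic, monocyte, T cell or endothelial markers was at 0 in all libraries of a group. Their part in the rise of the 7 genes was not tested.

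The genes of most similar pattern were ranked by correlation with the mean of the 7 genes among 12492 genes with a mean score of at least 50. Over the 15 libraries the first were Mpeg1 (0.994), a macrophage pore protein, H2-Q7 (0.986), a class Ib gene, and Ctss (0.985), and Ptprc came at rank 10 (0.982). Because group differences dominate this measure, each library's deviation from its group mean was used next. The first were then the class I genes H2-K1 (0.973), H2-D1 (0.957), H2-Q7 (0.954) and H2-Q4 (0.933), with B2m at rank 10 (0.906) and Ptprc at 0.699. Points share a library and its depth in both measures, which are descriptions over 15 libraries.

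The deviations themselves show this. The mean log2 deviation of the 7 genes was -0.71 in untreated replicate 2, -0.66 in dual replicate 2 and -0.62 in triple replicate 3, and 0.59 in contralateral replicate 1. H2-K1 deviated in the same libraries by -0.32, -0.36, -0.28 and 0.31. Ptprc deviated by -0.53 in dual replicate 2 and -0.58 in triple replicate 3, but by -0.10 in untreated replicate 2. All 7 genes were lowest in the same library of each of the 3 tumour groups. Untreated replicate 2 also held the highest share of mitochondrial ribosomal RNA, whose part in its low class II level was not tested. Between pairs of the 7 genes, correlations were 0.908 to 0.998 over libraries and 0.201 to 0.974 for deviations (21 pairs).

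**Figure D5:**
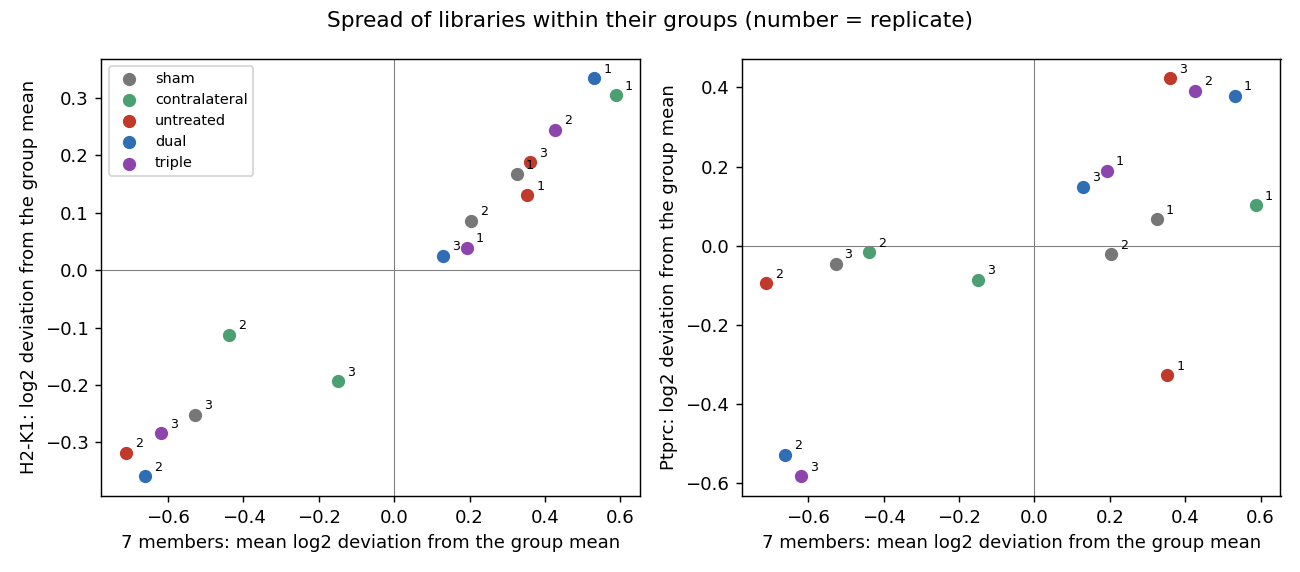
Deviation of each library from its group mean, on the log2 scale: mean of the 7 genes (x axis) against H2-K1 (left) and Ptprc (right), numbered by replicate. Libraries low in class II, such as untreated replicate 2 (-0.71), are low in H2-K1 (-0.32) but not always in Ptprc (-0.10).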

How the data were processed

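Libraries were made from total RNA with a stranded Clontech kit, per the labels' protocols. The submitters' processing notes name STAR 2.4.0a, featureCounts 1.4.5-p1 of Subread, DESeq2 and the build GRCm38 (mm10). The values the authors deposited are a score per gene and library: whole numbers that fit reads times a factor per library, rounded. One read was worth an estimated 0.656 to 1.86 score units, with 1 assumed where no clear steps between scores were found.

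Scores were tested as log2(score + 1) with limma 3.58.1 under R 4.3.3, using limma-trend on all 15 libraries in 1 fit, and p adjusted by Benjamini-Hochberg over 19668 genes; the threshold was 0.05, and intervals are 95%. The test was checked on simulated data in which few genes changed, only in the untreated group, and all genes were drawn with the same setting for spread. That check does not cover data like these, in which many genes changed and spread differed between genes. P-values measure the spread between pools of 3 mice. Ratios were tested by exact permutation.

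The 7 genes and all lists were chosen with earlier results of these data known. Named genes are the 7, up to 4 of each list and the genes of most similar pattern; others, such as the region's neighbours, were named after their values were seen. Alternatives were another pseudocount, no filter, 3 other scalings, no trend, quality weights, voom on approximate reads, a replicate block, only the 6 libraries compared, and libraries left out.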

Additional observations from a re-analysis of the deposited data

How the results depend on the processing

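The rises of all 7 genes in untreated tumour (against contralateral and against sham) and in dual tumour against contralateral were called under every alternative run. In triple against contralateral, only H2-DMa with voom was lost. That count was then 6, and counts changed in 2 further comparisons: quality weights called 1 gene in contralateral against sham and 1 in triple against untreated, where leaving out both libraries that stand apart also called 1, and leaving out 1 library gave 0 to 1.

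Small uncalled differences changed sign. In triple against untreated, quantile normalisation gave -0.041 (H2-Aa), -0.082 (H2-Ab1) and -0.002 (H2-Eb1). Endothelial scaling gave -0.013 (H2-Ab1). Scaling without mitochondrial rRNA and Gm26917 gave -0.04 (H2-Aa) and -0.054 (H2-Ab1). Quality weights gave -0.126, -0.051 and -0.035 (H2-Aa, H2-Ab1, H2-Eb1). Voom gave 0.207 (Cd74) and, in dual against untreated, 0.025 (H2-Ab1). Without both libraries the values were -0.277, -0.223 and -0.188 (H2-Aa, H2-Ab1, H2-Eb1). In triple against dual, they were then -0.188 (H2-Ab1), -0.053 (H2-Eb1), -0.203 (H2-DMa) and -0.041 (Cd74), and endothelial scaling gave 0.024 (Ciita). The cause was not tested.

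Leaving out 1 library gave ranges across 0. In triple against untreated these were -0.42 to 0.26 (Cd74), -0.28 to 0.29 (H2-Aa), -0.22 to 0.39 (H2-Ab1) and -0.19 to 0.44 (H2-Eb1). In triple against dual they were -0.04 to 0.78 (Cd74), -0.52 to 0.34 (Ciita), -0.19 to 0.57 (H2-Ab1), -0.20 to 0.48 (H2-DMa) and -0.05 to 0.70 (H2-Eb1). In dual against untreated they were -0.47 to 0.26 (H2-Ab1) and -0.59 to 0.20 (H2-Eb1), and in contralateral against sham -0.17 to 0.37 (Ciita).

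Calls over all genes, the background of the member counts, varied over the alternatives by more than 1.5 times in 5 comparisons: from 85 in contralateral against sham to between 0 (only the 6 libraries compared) and 631 (quality weights), from 171 in triple against dual to between 0 and 327, from 2518 in dual against contralateral to between 1442 and 2747, from 4377 in dual against untreated to between 2205 and 4692, and from 978 in triple against contralateral to between 508 and 1850. Endothelial scaling moved the median of all genes from 0.008 to 0.264 in untreated against contralateral and from -0.007 to -0.21 in dual against untreated. The share of rises among calls moved from 49.6% to 70.5% and from 54.3% to 24.6%. Whether libraries of the same number, such as contralateral and untreated, came from the same mice is not stated in the labels. Of 30 correlations of deviations between same-numbered libraries of all groups (-0.13 to 0.103), 1 was over 0.1. Most of these pairs come from groups that cannot share mice. Contralateral and untreated libraries were not looked at apart, so the count cannot decide on their pairing. With the replicate block, 7 genes were called in untreated against contralateral and 0 in triple against untreated, and no member's call changed. H2-DMb1 and H2-DMa, with scores near 10 without tumour, depend on the pseudocount in their ratios: with 10, the ratio of H2-DMb1 to Ptprc in untreated against contralateral was -0.068.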
